A study of Mus musculus with 12 samples.

Results

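The keratin genes of basal and simple epithelium were examined in fetal mouse liver, namely Krt7, Krt8, Krt18, Krt19 and Krt23, known from simple (single-layered) epithelium, and Krt5, Krt14, Krt15, Krt13 and Krt10, known from stratified (many-layered) epithelium. They are 10 of the 52 keratin rows and of the 30743 rows of the deposited table, and all 10 were found by gene symbol. The genes were selected on the diet difference in the authors' own comparison, and the values of that comparison are not used here. RNA was sequenced from whole livers of 6 Control and 6 High-fat male fetuses at 15 ± 0.5 days post coitum. The Control dams were fed Laboratory Rodent Diet 5001 with 13.5 kcal% fat and the High-fat dams D12492 with 60 kcal% fat, for 12 to 14 weeks, and the strain of all livers was C57BL/6J. Each library is a whole organ, in which blood-forming cells, hepatoblasts, bile duct precursors and the covering mesothelium are mixed, so fewer cells of a type and less RNA per cell cannot be told apart.

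Keratins are the intermediate filament proteins of epithelial cells. Each filament is built from pairs of a type I (acidic) and a type II (basic) chain, so a cell that makes keratin filaments makes at least 1 gene of each type. Krt8 (type II) with Krt18 (type I) is the pair of simple epithelia and the keratin pair of hepatocytes, and bile duct cells add Krt7 (type II) and Krt19 (type I). Krt5 (type II) with Krt14 or Krt15 (type I) is the pair of the basal layer of stratified epithelia. Krt10 is the type I chain of the layers above it in the epidermis, and Krt13 is that of the inner linings such as the oesophagus. Of the 10 genes, 7 are type I and 3 are type II.

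The column of values used here is 1 average per gene over all 12 livers, in log2 CPM (reads of a gene relative to the size of its library). It does not separate the diets, so no difference between Control and High-fat livers is given for any keratin, no test was run, and no value has an SD. The average was turned back into reads, because edgeR adds 2 reads to each of the 12 libraries before averaging and 1 further read then raises a gene by 1 part in 24 of the lowest level. Of the 4222 rows with 1 to 10 estimated reads, 99.69% lay within 0.1 of a whole number. On average a library held 13129752 reads after normalization, and 1 CPM stood for 157.6 reads over all livers. Levels below are in CPM with the added reads removed, or in CPM per kb of merged exons where genes are compared, and counts of genes above 1 CPM use the deposited average, which still holds the added reads. Their 95% intervals (exact Poisson, or exact binomial for ratios) cover counting error only, and the spread between livers is unknown.

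Some rows of the table held few reads for genes that every cell uses. Ppia, which encodes the folding enzyme cyclophilin A, had 2 reads, and the ubiquitin gene Ubb and the replication helicase gene Mcm5 were listed at 0. In a list of 226 household genes, chosen after the data were seen, 34 of the 215 genes with several annotated transcripts lay under 1 CPM (15.8%), 10 of them at 0. None of the 11 genes with 1 annotated transcript did, and the lowest of these had 11.6 CPM. Over the whole table, 35.96% of the 4547 rows with 1 annotated transcript were at 0. The share of all 30743 rows was 36.08%, but these include rows not matched to the annotation. Of the 21063 matched rows, 15887 had reads. Among matched rows, a value of 0 was thus more frequent for genes with 1 annotated transcript than for the others. Some genes with several annotated transcripts were well read, such as Actb (9 transcripts, 406702 reads) and Eef1a1 (8 transcripts, 937623 reads). The part of transcript number in low values was not tested. Of the keratins, Krt8, Krt18, Krt23 and Krt5 have 1 annotated transcript, and the other 6 have several (Krt7 has 5, Krt19 and Krt13 have 3, and Krt10, Krt14 and Krt15 have 2). The levels of these 6 may not hold the whole gene, and a row at 0 is only listed at 0.

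Keratin genes also resemble each other, and 2 stretches of coding sequence are shown because reads from them cannot be assigned to 1 gene by sequence alone. Positions are counted from 1 at the start codon in GENCODE M21 transcripts on GRCm38 (the build mm10), and each sequence is given 5′ to 3′ in the direction of the transcript. Capitals mark bases that the gene shares exactly with its relative.
Krt8, coding bases 370 to 504, with the first 120 bases of a stretch of 299 that is identical in the pseudogene Krt8-ps: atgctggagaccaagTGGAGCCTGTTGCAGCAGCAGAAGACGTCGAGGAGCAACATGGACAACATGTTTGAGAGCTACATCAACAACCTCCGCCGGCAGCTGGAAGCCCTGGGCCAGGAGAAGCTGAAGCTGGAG
Krt14, coding bases 291 to 454, with 134 bases identical in Krt16: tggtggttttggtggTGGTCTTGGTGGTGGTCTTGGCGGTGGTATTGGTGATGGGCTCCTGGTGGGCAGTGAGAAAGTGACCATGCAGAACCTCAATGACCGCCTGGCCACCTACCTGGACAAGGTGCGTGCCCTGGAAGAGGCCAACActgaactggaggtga
Over whole transcripts, 29.7% of the 1909 stretches of 50 bases in Krt8 also occur in another gene (Krt8-ps or Gm36026). The share was 12.2% of 2148 stretches for Krt5, chiefly with Krt6a, Krt6b, Gm5478 and Gm44323, and Gm5414 shared some as well. For Krt14 the share was 14.4% of 1649, with Krt16 and Krt17. It was 2.44% for Krt10, 0.72% for Krt18, 0.67% for Krt15, 0.22% for Krt7 and 0.00% for Krt19, Krt23 and Krt13. In the table, Krt6a had 13 reads, Krt17 had 55, and Krt16 and Krt6b were listed at 0. Krt8-ps and Gm36026 were not found there by symbol. How the authors treated reads that match several genes is not given in the sources used here, so the levels of Krt8, Krt5 and Krt14 are uncertain by the part that such reads make up.

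The pair of simple epithelium held nearly all keratin reads of the 10 genes. Krt18 (chr15:102028180-102032027, plus strand) had 26063 estimated reads over the 12 livers, a level of 165 CPM (163 to 167) and 115 CPM per kb (114 to 116). Krt8 (chr15:101996698-102004482, minus strand) had 20205 reads, a level of 128 CPM (126.5 to 130) and 65.5 CPM per kb (64.6 to 66.4). Per kb these levels lay at the 97.77 and 95.94 percentile of the 15887 rows with reads and a length, whose median was 0.379 CPM per kb. Krt8 and Krt18 together made up 96.28% of the summed level per kb of the 10 keratins.

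The level per kb of Krt8 was 0.569 times that of Krt18 (0.559 to 0.580), and the proteins pair in equal numbers in the filament. The ratio was 0.669 per kb of coding sequence and 0.775 with no division by length. Both genes have 1 annotated transcript, and Krt18 lay above Krt8 under each of these 3 lengths. However, 29.7% of the stretches of 50 bases in Krt8 and 0.72% of those in Krt18 also occur in another gene. The effect of such shared reads on the ratio or its direction was not tested. Over the 10 keratins, type I genes held 64.42% of the summed level per kb and type II genes 35.58%.

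The keratins of bile ducts were far lower. Krt19 (chr11:100140810-100148665, minus strand), the type I chain of ducts, had 934 reads and 3.20 CPM per kb (2.99 to 3.41). Krt7 (chr15:101411043-101430313, plus strand), its type II partner, had 1087 reads and 0.978 CPM per kb (0.921 to 1.04). Per kb the level of Krt18 was 36.0 times that of Krt19 (33.7 to 38.5), and the level of Krt8 was 67.0 times that of Krt7 (63.0 to 71.2). The last ratio was 17.3 per kb of coding sequence, since the merged exons of Krt7 span 7049 bases and its coding part 1371.

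The order of Krt7 and Krt19 depended on the length used. Krt7 stood at 0.306 times Krt19 per kb of merged exons (0.280 to 0.334), at 1.03 times per kb of coding sequence and at 1.16 times with no division by length. Krt23 (chr11:99477974-99493137, minus strand), a further type I keratin, had 113 reads and 0.459 CPM per kb (0.378 to 0.551). Its level was 251 times lower than that of Krt18 (209 to 304 times).

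The keratins of the basal layer were present at 41 to 91 reads each. Krt5 (chr15:101707070-101712898, minus strand) had 91 reads and 0.263 CPM per kb (0.212 to 0.323). Krt15 (chr11:100131758-100135928, minus strand) had 67 reads and 0.241 CPM per kb (0.186 to 0.306), and Krt14 (chr11:100203162-100207548, minus strand) had 41 reads and 0.147 CPM per kb (0.106 to 0.201). These 3 genes lay at the 45.82, 44.82 and 39.11 percentile of rows per kb, below the median row with reads.

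Krt5 was 1.79 times its partner Krt14 per kb (1.22 to 2.65) and 1.09 times Krt15 (0.788 to 1.52), an interval that includes equal levels. Krt8 was 249 times Krt5 (202.5 to 309) and Krt18 437 times Krt5 (356 to 543) per kb, and these 3 genes have 1 annotated transcript each. Krt5 was 7.68 times Krt6a (4.28 to 15.0), with which it shares stretches of sequence.

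The keratins of upper layers differed widely from each other. Krt10 (chr11:99385254-99389364, minus strand) had 562 reads and 1.69 CPM per kb (1.55 to 1.83), more than any other of the 5 stratified genes. Krt1, its type II partner in the epidermis, had 53 reads and 0.0756 CPM per kb (0.0571 to 0.0997). Krt13 (chr11:100117327-100121566, minus strand) had 1 estimated read, or 0.00352 CPM per kb (8.82e-05 to 0.0194). Its type II partner Krt4, which has 1 annotated transcript, had 136 reads and 0.405 CPM per kb (0.340 to 0.479). Krt4 stood at 1.54 times Krt5 per kb (1.17 to 2.03).

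**Figure D1:**
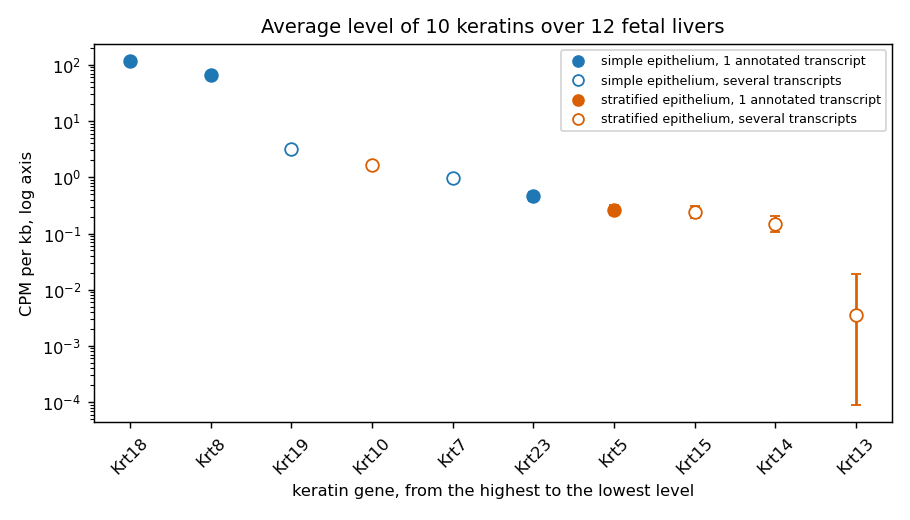
Average level of the 10 keratins over the 12 fetal livers in CPM per kb of merged exons, on a log axis, with 95% counting intervals as bars and filled symbols for genes with 1 annotated transcript. Krt18 (115) and Krt8 (65.5) stand apart from the other 8, which lie at 3.20 or less.

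From the highest to the lowest level per kb the order was Krt18, Krt8, Krt19, Krt10, Krt7, Krt23, Krt5, Krt15, Krt14 and Krt13. The counting intervals of Krt5 and Krt15 overlapped, as did those of Krt15 and Krt14, and those of the other neighbours did not. The place of Krt7 depended on the length used. It lay below Krt10 per kb of merged exons, stood at 1.68 beside 1.70 CPM per kb with the longest transcript, and lay above Krt10 per kb of coding sequence (5.03 beside 2.12) and in CPM (6.90 beside 3.57). Since the spread between livers is unknown, the order describes the average only. The 5 genes of simple epithelium held 98.75% of the summed level per kb and the 5 stratified genes 1.25%. Among the 4 genes with 1 annotated transcript, Krt5 held 0.145%.

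Among all keratins, 30 of 52 rows had reads and 22 were listed at 0 (42.31%, beside 36.08% of all rows). Only 8 rows lay above 1 CPM (15.38%, beside 33.08% of all rows), of which 5 were Krt18, Krt8, Krt7, Krt19 and Krt10. The other 3 were Krt20, Krt80 and Krt4. A further 14 rows had 1 to 10 reads, 7 of them a single read, and Krt13 was among these 7. The 10 keratins of basal and simple epithelium held 76.22% of the summed level per kb of the family, and the same 10 without Krt8 and Krt18 held 2.83%.

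Krt20, a type I keratin known from intestinal and bladder lining, was the only other keratin in the range of Krt8 and Krt18. It had 17441 reads and 57.4 CPM per kb (56.6 to 58.3), which was 23.34% of the family. Its level was 0.877 times that of Krt8 (0.859 to 0.895), and Krt18 stood at 2.00 times Krt20 (1.97 to 2.04). Krt20 has 1 annotated transcript, none of its stretches of 50 bases occurs in another gene, and Krt8, Krt18 and Krt20 together held 96.73% of the family. Krt80 had 203 reads and 0.201 CPM per kb, and Krt17, a keratin of hair follicles and other skin appendages, had 55 reads and 0.225 CPM per kb. Krt17 stood at 1.52 times Krt14 (0.999 to 2.34) and 0.854 times Krt5 (0.599 to 1.21), intervals that include equal levels.

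**Figure D2:**
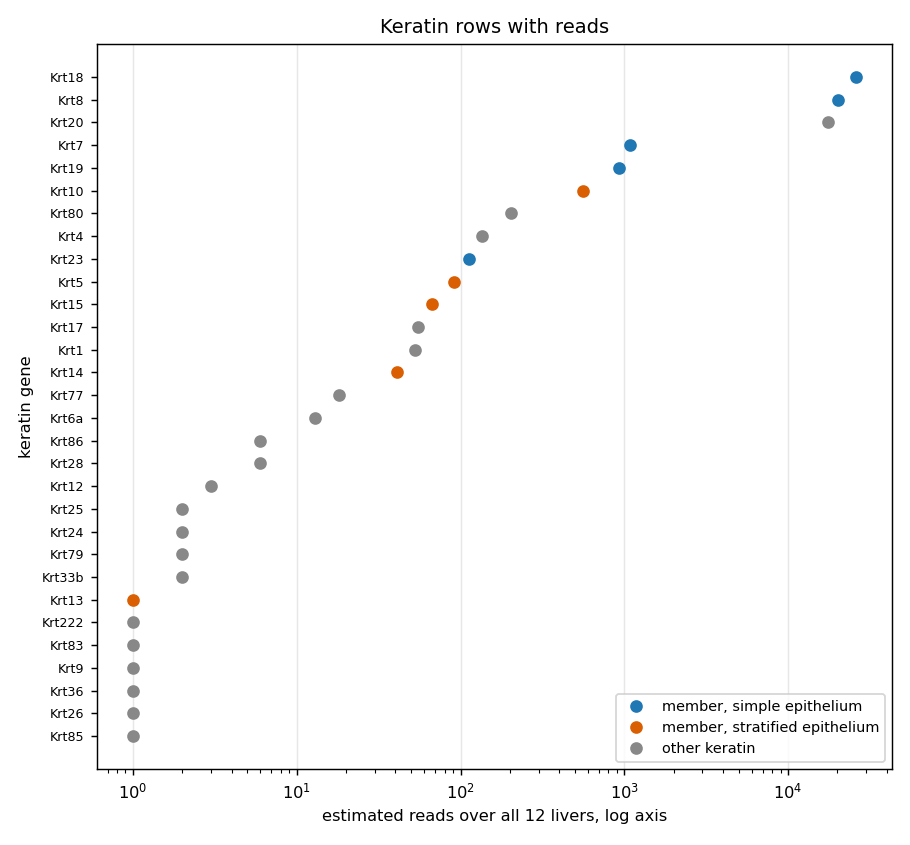
Estimated reads summed over the 12 livers, on a log axis, for the 30 keratin rows with reads, with the genes of simple epithelium in blue, those of stratified epithelium in orange and other keratins in grey. Krt18 (26063), Krt8 (20205) and Krt20 (17441) lie more than 10-fold above the next gene, Krt7 (1087).

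Keratin genes lie in 2 clusters of the mouse genome, and the well-read genes were scattered within them. On chromosome 11, 27 keratins span 1037111 bases, 17 of them with reads and 6 of them among the 10 examined. On chromosome 15, 23 keratins span 684584 bases, 12 with reads and 4 among the 10. The remaining 2 of the 52 rows, Krt85 (1 read) and Krt72-ps (listed at 0), were not matched to a position. Krt8 and Krt18 sit next to each other at 1 end of the chromosome 15 cluster, on opposite strands and 23697 bases apart. Krt18 is the single type I gene of that cluster. Krt13, Krt15 and Krt19 are consecutive on chromosome 11 and had 1, 67 and 934 reads, so neighbours in the cluster differed by orders of magnitude. Krt10 and Krt20 are separated by Krt12 alone, which had 3 reads.

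**Figure D3:**
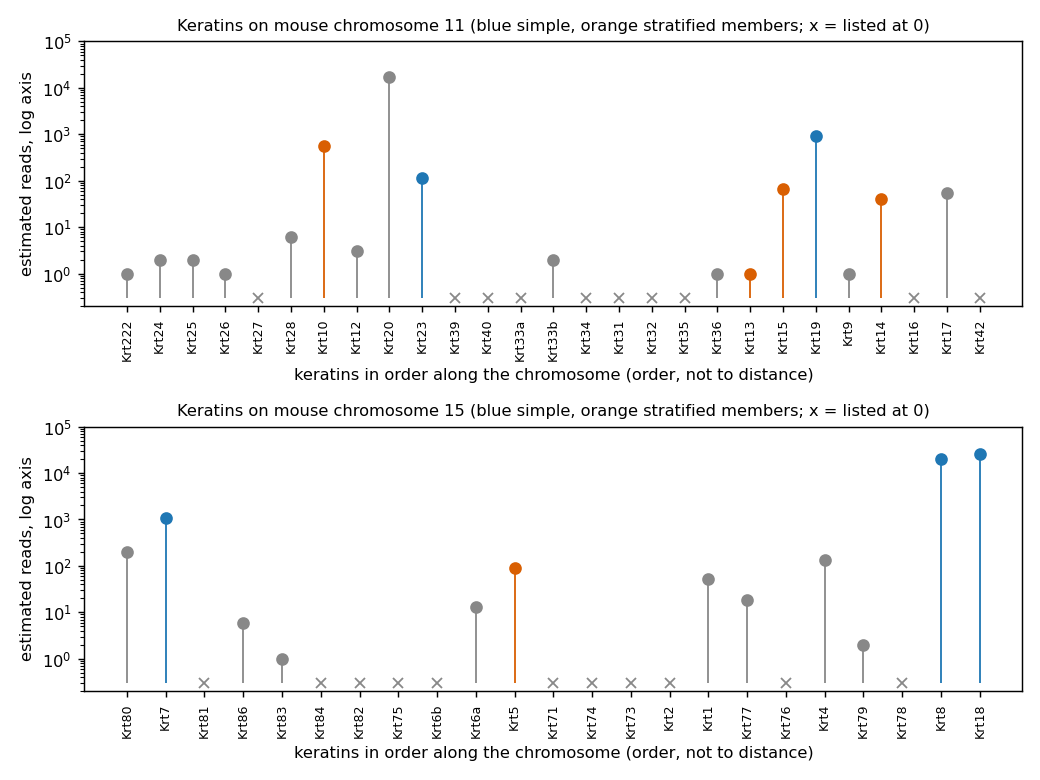
Estimated reads over the 12 livers, on a log axis, of the keratins of chromosomes 11 (upper panel) and 15 (lower panel) in their order along the chromosome, with simple epithelium genes in blue, stratified ones in orange and rows listed at 0 as crosses. Krt8 and Krt18 stand at the end of the chromosome 15 cluster, and Krt20 (17441 reads) stands beside Krt23 (113 reads) on chromosome 11.

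Marker genes of the tissue were read from the same column, with CPM per kb used between genes. The hepatoblast or hepatocyte list was high, with a median of 827 CPM beside 0.993 CPM for all rows with reads (list medians are not divided by length). Alb (albumin) stood at 27034, Afp (alpha-fetoprotein) at 16189 and Apoa1 (apolipoprotein A-I) at 4123 CPM per kb. However, Hnf4a, a regulator of hepatocyte genes with 5 annotated transcripts, was listed at 0. Serpina1a (3 annotated transcripts) had 5 reads, and Dlk1 (10 annotated transcripts) had 208 reads and 0.233 CPM per kb. Of the erythroid genes, 4 of 5 lay above 1 CPM and the median was 692 CPM, with Slc4a1 (the red cell anion exchanger) at 2461 and Klf1 (an erythroid transcription factor) at 452 CPM per kb, while Alas2 (an enzyme of heme synthesis, with 4 annotated transcripts) stood at 0.230. Of the 7 genes of that list, 5 were matched by symbol.

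Genes shared by bile duct and other simple epithelia had a median of 0.915 CPM, beside 0.993 CPM for all rows with reads. All 15 had reads, and 8 lay above 1 CPM (beside 33.08% of all rows). Krt7 and Krt19, though far below Krt8 and Krt18, lay at the 59.56 and 70.61 percentile of rows per kb, above the median row. Cdh1 (E-cadherin) stood at 45.1, Sox4 (a transcription factor) at 5.59 and Epcam (an epithelial adhesion molecule) at 2.51 CPM per kb. Sox9, which marks bile duct precursors and has 1 annotated transcript, stood at 0.679 CPM per kb, and Krt19 stood at 3.20. Mesothelium, the covering layer of the organ, also makes simple keratins, and all 8 of its genes had reads, 5 of them above 1 CPM, with a median of 2.21 CPM. Upk3b stood at 5.98, Aldh1a2 at 2.46 and Lrrn4 at 1.63 CPM per kb, each with 1 annotated transcript. Msln (mesothelin), with 9 annotated transcripts, had 3 reads, Gpm6a had 42 and Muc16 had 66. Which of these cell types held the reads of Krt7, Krt19 and Krt23 was not tested.

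Genes of stratified epithelium were low, with a median of 0.0411 CPM. Of 18, 11 had reads and 3 lay above 1 CPM. Sfn (1.14 CPM per kb) and Grhl3 (0.382), which act in epidermal differentiation, were among these 3. Trp63, the regulator of the basal layer, was listed at 0, as were Flg, Krtdap, Dsc3, Serpinb5, Tfap2a and Tfap2c, and all 7 have several annotated transcripts. All 5 genes of the list with 1 annotated transcript had reads, namely Sfn (291), Grhl3 (168), Lor (54), Ivl (10) and Lypd3 (6). Lor, which encodes a protein of the cornified layer, stood at 0.192 CPM per kb and Krt5 at 0.263.

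Keratin filaments are anchored at desmosomes, the junctions between epithelial cells. Of 17 desmosome genes, 14 had reads, 8 lay above 1 CPM and the median was 0.263 CPM. The highest by average were Dsp (desmoplakin, which binds keratin) at 9.54, Dsg2 (the desmoglein of simple epithelia) at 8.10 and Perp (a desmosome membrane protein) at 20.6 CPM per kb. Among desmogleins and desmocollins known from the epidermis, Dsc1, Dsc3 and Dsg1b were listed at 0, Dsg3 had 1 read, Dsg1a had 3 and Dsg1c had 42. Dsc1 has 4 annotated transcripts, Dsc3 has 3 and Dsg1b has 1. Among other genes of the list, Dsc2 (a further desmocollin) had 7 reads, Pkp1 had 10, Pkp3 had 11, Evpl had 280 and Ppl had 743. The hemidesmosome, which holds basal cells to their matrix, had reads for all 9 genes and a median of 0.394 CPM, and Dst (dystonin, 0.207 CPM per kb) and Lamb3 (a laminin chain, 0.207) were among its 3 highest by average. Col17a1, a collagen particular to hemidesmosomes, had 7 reads. All 9 genes have several annotated transcripts.

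Of 15 other intermediate filament genes, 13 had reads, 7 lay above 1 CPM and the median was 0.426 CPM. Lmnb1 (lamin B1, of the nuclear envelope) stood at 171, Vim (vimentin, of mesenchymal and blood cells) at 68.1 and Gfap (of astrocytes and stellate cells) at 13.9 CPM per kb, and Prph and Bfsp1 were listed at 0. Vimentin was thus near Krt8 (65.5) per kb, although Vim has 6 annotated transcripts.

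Epithelia of neighbouring organs were read as well, because they carry keratins of their own. Of the 10 intestinal genes, which include Krt20, 9 had reads and 4 lay above 1 CPM (median 0.685 CPM), with Tff3 (a mucosal trefoil peptide) at 46.1 and Fabp2 (the intestinal fatty acid binding protein) at 15.8 CPM per kb, and Isx listed at 0. Cdx1 and Cdx2, regulators of intestinal identity with 1 annotated transcript each, had 29 and 88 reads. All 12 pancreatic acinar genes had reads and 6 lay above 1 CPM (median 0.587 CPM), with Ctrb1 at 14.1, Cela1 at 5.88 and Cpa1 at 4.51 CPM per kb. The acinar genes under 1 CPM had few reads, namely Pnlip (2), Ptf1a (11), Cela2a (13), Prss1 (21), Rbpjl (21) and Cela3b (24). In the stomach or oesophagus list, 10 of 11 had reads and 1 lay above 1 CPM (median 0.0318 CPM). This was Muc6 (4.41 CPM per kb). Atp4a (0.179 CPM per kb) and Gkn3 (0.0746) followed in the average not divided by length, and Gkn2 was listed at 0. In the airway or lung list, 2 of 5 had reads, Foxj1 with 21 and Sftpb with 6, and Nkx2-1, Sftpc and Scgb1a1 were listed at 0. Whether RNA of other organs is part of the keratin levels was not tested.

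**Figure D4:**
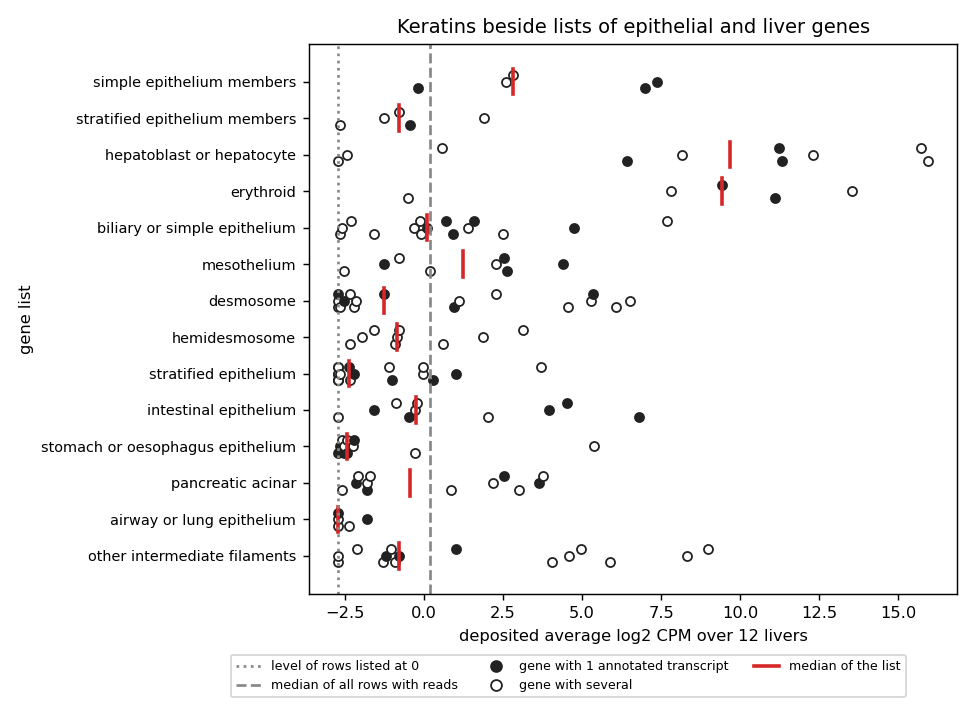
Deposited average log2 CPM over the 12 livers (not divided by length) of each gene in the keratin groups and marker lists, with filled circles for genes with 1 annotated transcript, red bars at list medians, a dotted line at rows listed at 0 and a dashed line at the median of all rows with reads. The simple epithelium keratins span -0.20 to 7.37, the stratified ones -2.66 to 1.89.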

How the data were processed

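Whole livers of 6 Control and 6 High-fat male fetuses were frozen in RNALater, RNA was extracted with RNeasy, and polyA RNA was made into unstranded TruSeq v2 libraries. Alignment by the authors was to mm10 (Subread 1.3.6-p1), gene annotation came from biomaRt, and their comparison of diets from edgeR. The submitters' processing notes also name cutadapt 1.2.1. The read counter, the normalization and the version of the authors' edgeR are not given in the sources used here.

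The deposited table holds the authors' average log2 CPM over all livers, which was the single column used. Its other 8 columns of values hold the authors' comparison of the diets (log2 fold change, p-value, adjusted p-value and signed fold change, each with a common and a tagwise dispersion) and were not used. The edgeR quasi-likelihood test planned for counts of each liver was not run, since no value of a single liver was used here.

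Averages were turned into reads over all livers by subtracting the level of the 11091 rows at the lowest average (0.152 CPM), which removes the 2 reads added to each library. The conversion was also run on simulated data built with the same 2 added reads. That run checks the arithmetic only and cannot show how the deposited average was made. Of the 30743 rows, 21063 were matched by symbol to GENCODE M21 (GRCm38), which gave merged exon lengths, transcripts and coding sequences. Depth of each liver is not known. The mean effective library of 13129752 reads sets the counting intervals, which cover counting error only, since PCR copies are not independent molecules.

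The keratins and the gene lists were chosen with earlier results of these data known, and the household gene list after the values were seen. Named genes were the 10 keratins, the 5 highest other keratins, and the 3 highest and the zero-level genes of each list. A few genes of the lists and 1 sequence are not reported here. Others named (such as Sox9, Cdx1, Cdx2, Krt12 and genes with few reads) were chosen after their values were seen. The nearest relative of a keratin was first scored by a measure that favoured long genes, and was rescored as matches over the longer coding length. A search of promoters for motifs was made and is not reported, since the values used do not bear on promoters. Python 3.11.15, numpy 2.4.6, pandas 2.3.3, scipy 1.17.1, biopython 1.88 and matplotlib 3.10.9 were used.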

Additional observations from a re-analysis of the deposited data

How the results depend on the processing

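No paired analysis was possible because no value of a single liver was used, and the replicate numbers only name the samples. No fit without 1 of the livers was run, for the same reason. The planned coding length from RefSeq proteins was not run, as no protein table was at hand, and the coding length of GENCODE M21, chosen after seeing the data, took its place. The restriction to genes with 1 annotated transcript was also chosen after seeing the data.

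The summed level of the 10 keratins was 187.6 CPM per kb and became 231 per kb of coding length. The simple epithelium share (98.75%) was 98.55% with the added reads left in, 98.45% with no division by length and 99.85% over genes with 1 annotated transcript. The share of the keratin family held by the 10 genes (76.22%) became 75.41%, 73.26% and 75.72% in the same order. The Krt8 to Krt18 ratio (0.569) was 0.669 per coding length and 0.775 with no division by length. The median percentile of the 10 keratins was 54.55 among rows with reads and 70.95 among all rows. For the 5 of them above 1 CPM, the median percentile among rows above 1 CPM was 39.49. Keratins above 1 CPM numbered 8, with 12 above 0.5 CPM and 6 above 2 CPM. Single levels moved beyond their counting interval for 5 of 10 genes with the added reads left in, for 2 of 10 with the longest transcript and for 8 of 10 with the coding length. Depth limits Krt13, which rests on 1 read. The Krt8 to Krt18 ratio stayed under 1 and the Krt5 to Krt14 ratio above 1 under the alternatives run for each. None of these alternatives dealt with reads that match several genes. The Krt7 to Krt19 ratio passed 1 with the coding length (1.03) and with no division by length (1.16).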
